A study of Homo sapiens with 72 samples.

Results

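TFIIH is the general transcription factor that opens promoter DNA for RNA polymerase II and phosphorylates the tail of the polymerase, and the same complex opens damaged DNA in nucleotide excision repair. Its core holds the helicases XPB (ERCC3) and XPD (ERCC2) together with the structural subunits GTF2H1 to GTF2H5, and its kinase module holds CDK7, cyclin H (CCNH) and the assembly factor MAT1 (MNAT1). Triptolide, a natural product that inhibits transcription, binds XPB. The 10 genes of these subunits were taken by symbol from the Ensembl identifiers, and all 10 were found among the 60371 listed genes. The mRNA of each subunit was measured, not the protein.

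U2OS, an established line from a human osteosarcoma, was profiled by population RNA-seq in 72 wells. DMSO, the solvent, was given to 18 wells, and 6 compounds were each given to 3 wells at 100 nM, 1000 nM and 10000 nM for 12 h. The compounds were triptolide, the translation inhibitor homoharringtonine, the JNK inhibitor pyrazolanthrone, the ABL kinase inhibitor nilotinib, the glucosidase inhibitor miglitol and the AKT inhibitor MK-2206. The bone matrix genes SPARC (median 2137 TPM in DMSO) and COL1A1 (452.3 TPM) were high, COL1A2 was near 0 (0.07 TPM), and the leukocyte gene PTPRC (0.035 TPM) and the endothelial gene PECAM1 (0.11 TPM) were near 0. The epithelial gene EPCAM had a median of 2.38 TPM.

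Libraries held 0.0708 to 68.3 mil expected counts (median 38.4 mil). The 3 libraries under 10 mil were replicate 2 of triptolide at 100 nM with 70767 counts, DMSO replicate 10 and replicate 1 of triptolide at 1000 nM. In the shallowest of them ERCC3 rested on 6 counts and CDK7 on 2, and GTF2H2, GTF2H3 and CCNH had 0 counts, which allows up to 3 counts. Results at triptolide 100 nM are therefore given with and without that library where it decides them. Nothing in the labels says that wells were separate cultures made on separate days, so p-values measure the spread between these wells.

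The 10 genes lie on chromosomes 2, 5, 6, 11, 12, 14 and 19 of GRCh38, and 3 of them (GTF2H2, CDK7 and CCNH) lie on chromosome 5. ERCC3 spans 36877 bases on the reverse strand of chromosome 2 (127257290 to 127294166), and CDK7 spans 42636 bases on the forward strand of chromosome 5 (69234795 to 69277430). MNAT1 is the longest gene with 235224 bases and GTF2H4 the shortest with 5900. The 250 bases before the RefSeq start (GRCh38.p14) are shown for ERCC3, which encodes the protein that triptolide binds, and for CDK7, the subunit whose mRNA changed most in these wells. Capitals mark the ETS core CGGAAGT, a motif bound by ETS family factors in many promoters of housekeeping genes, which was chosen after the sequences were seen.
ERCC3, chr2:127294145-127294394, reverse strand: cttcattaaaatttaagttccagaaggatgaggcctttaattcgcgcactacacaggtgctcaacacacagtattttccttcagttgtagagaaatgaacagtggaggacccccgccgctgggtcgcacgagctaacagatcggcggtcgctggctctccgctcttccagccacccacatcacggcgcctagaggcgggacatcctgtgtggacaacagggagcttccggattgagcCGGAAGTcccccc
CDK7, chr5:69234545-69234794, forward strand: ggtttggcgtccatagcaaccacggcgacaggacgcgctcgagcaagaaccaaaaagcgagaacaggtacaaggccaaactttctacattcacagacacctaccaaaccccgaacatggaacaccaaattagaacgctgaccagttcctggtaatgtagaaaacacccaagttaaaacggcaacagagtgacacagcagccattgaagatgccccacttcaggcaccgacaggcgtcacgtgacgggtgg

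Counted on both strands in the window from 250 bases before to 50 bases after the start, the ETS core was present in 4 of the 10 genes against 7.23% of 27305 promoters. These were ERCC3, GTF2H1, GTF2H2 and GTF2H3, and GTF2H3 held 3 matches. In ERCC3 the match began 13 bases before the start. The printed CDK7 window held none, and the window of the other start that RefSeq lists for CDK7 held 1. The letters TATAAA were in 0 of the 10 windows (12% of promoters), and CCAAT was in 2, ERCC2 and GTF2H4 (35.7% of promoters). No gene held both the ETS core and CCAAT. The matches of the other 3 genes are shown in 30 bases each, in the gene's direction, with the core or its reverse complement ACTTCCG in capitals. For GTF2H3 the match nearest the start is given.
GTF2H1, chr11:18322536-18322565, forward strand: cccgccttgctACTTCCGgtcacgtgccct
GTF2H2, chr5:71067713-71067742, reverse strand: gcggcggaatgACTTCCGgggcgcccctaa
GTF2H3, chr12:123633714-123633743, forward strand: ccccgcactccACTTCCGcagattaggggg
A match describes the letters only, and binding was not measured.

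In DMSO wells all 10 genes were expressed, and the medians of 9 of them lay between 18.9 and 56.4 TPM. The order of the median TPM, which is scaled to gene length, was MNAT1 (56.4), CDK7 (51.0), ERCC3 (43.7), GTF2H4 (43.3), GTF2H1 (30.3), CCNH (24.2), ERCC2 (19.1), GTF2H2 (18.9), GTF2H3 (18.9) and GTF2H5 (2.50). GTF2H5, which encodes the smallest subunit, stood below the others in TPM, and its highest DMSO well (4.93 TPM) was under the lowest of GTF2H3 (9.87 TPM). This place holds for the values scaled to length, since the annotated transcript of GTF2H5 has 7483 bases and that of GTF2H2 1734. In TMM-scaled CPM, not scaled to length, their DMSO medians without replicate 10 were 12.1 and 12.7. The ranges of all other neighbours in this order overlapped. Within wells, GTF2H4 exceeded GTF2H1 in 18 of 18 wells, whereas ERCC2 exceeded GTF2H2 in 9 of 18.

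**Figure D1:**
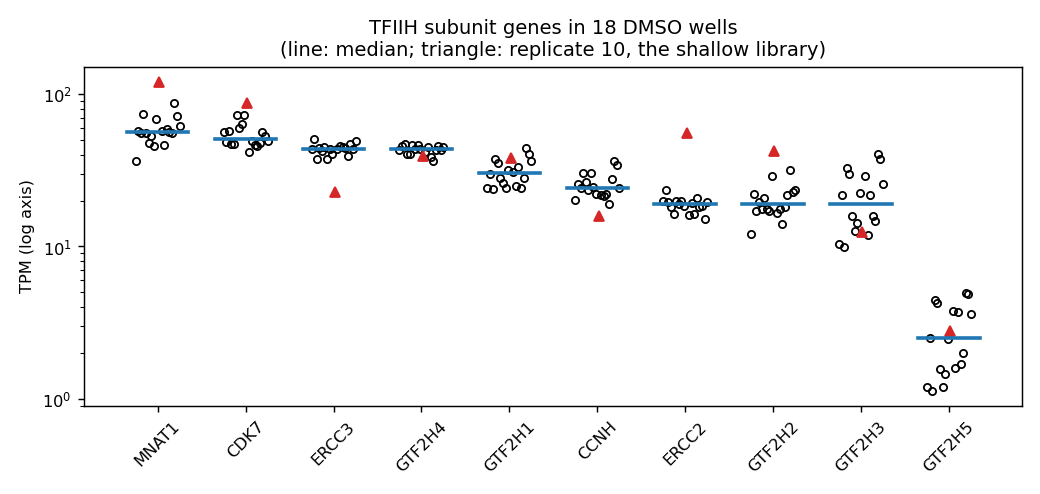
TPM on a log axis of the 10 TFIIH genes in the 18 DMSO wells, 1 point per well, with lines at the medians and a triangle for DMSO replicate 10. GTF2H5 is apart at a median of 2.50 TPM, and the shallow replicate 10 is the lowest well of ERCC3 at 22.6 TPM.

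Expression was then compared with DMSO for each compound and dose with TMM scaling and the quasi-likelihood test of edgeR, with Benjamini-Hochberg adjustment over all genes tested, and a gene was called at an adjusted p-value under 0.05. Values per well are TMM-scaled CPM, written as normalised CPM, and fold changes are log2(Fold Change) ± SE. TMM sets the bulk of genes to little change, and the choice matters for triptolide. The median of all genes at 10000 nM was -0.17 with TMM, -0.70 with library sizes only and -2.92 when libraries were scaled to the 13 mitochondrially encoded mRNAs. At 1000 nM these medians were -0.21, -0.67 and -2.68, and at 100 nM -0.16, -0.50 and -1.81. Those mitochondrial mRNAs took 0.138 to 0.367% of counts in DMSO wells and 1.01 to 1.15% at triptolide 10000 nM. With homoharringtonine at 10000 nM the medians were -0.05, -0.09 and -0.32.

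Triptolide left the subunits of the complex at very different levels. CDK7 mRNA was almost lost at the upper doses, GTF2H2 and GTF2H4 fell, and under TMM ERCC3, ERCC2 and GTF2H3 rose at 1000 nM and 10000 nM, a direction that turned to a fall for all 3 genes with mitochondrial scaling. At 100 nM 5 of 10 genes were called (56.8% of all genes tested), 1 higher (24.5% of all genes) and 4 lower (32.3%). At 1000 nM 6 were called (67.4%), 3 higher (28.8%) and 3 lower (38.6%), and at 10000 nM again 6 (71.8%), 3 higher (32.2%) and 3 lower (39.7%). These shares are close to those of all genes. Past a log2(Fold Change) of 1 in size, 2, 1 and 2 genes were lower (20.9%, 30.4% and 30.2% of all genes). The median log2(Fold Change) of the 10 genes was -0.51, 0.17 and 0.07 at the 3 doses, beside -0.16, -0.21 and -0.17 over all genes tested.

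ERCC3 encodes XPB, the translocase of the complex and the protein bound by triptolide. Its DMSO wells ran from 35.04 to 76.7 normalised CPM with a median of 71.8. The lowest was the shallow replicate 10, which held 20 counts of ERCC3, and the other 17 wells started at 65.1. With triptolide ERCC3 was at 76.1, 72.3 and 61.8 at 100 nM, at 88.2, 79.1 and 90.2 at 1000 nM, and at 110, 106 and 91.7 at 10000 nM. All wells at 1000 nM and 10000 nM lay above every DMSO well, which 17.9% and 24.7% of all genes did, whereas those at 100 nM overlapped with DMSO.

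The fitted change of ERCC3 was -0.01 ± 0.13 at 100 nM (adjusted p = 0.954), 0.28 ± 0.11 at 1000 nM (adjusted p = 0.0238) and 0.50 ± 0.10 at 10000 nM (adjusted p = 0.000129, edgeR with TMM). It turned with the scaling, since with library sizes only it was -0.33 (adjusted p = 0.023), -0.17 (0.13) and -0.04 (0.74), and with mitochondrial scaling -1.61, -2.17 and -2.28. The median TPM of ERCC3 was also lower than in DMSO, at 29.3, 32.3 and 35.2 against 43.7. TPM medians also went the opposite way for ERCC2 (17.7 at 1000 nM and 19.06 at 10000 nM against 19.13) and for GTF2H3 at 1000 nM (15.7 against 18.9). Leaving out replicate 1 or replicate 3 at 1000 nM ended the call there (both 0.26, adjusted p = 0.084 and 0.093). The call at 10000 nM was kept without any single well (0.44 to 0.57). At 10000 nM ERCC3 was above the median of all genes, and with TMM 31.6% of genes had a higher log2(Fold Change). A scaling moves all genes nearly together, so the 3 scalings cannot test the place of ERCC3 against the median. The dose trend of ERCC3, 0.20 ± 0.09 per 10-fold dose, was not called (adjusted p = 0.105).

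ERCC2 encodes XPD, the helicase that opens DNA in repair. Its DMSO wells ran from 34.9 to 50.8 normalised CPM with a median of 40.6, and at triptolide 10000 nM it was at 63.7, 65.3 and 75.5, above every DMSO well. It rose by 0.41 ± 0.12 at 100 nM (adjusted p = 0.00377), 0.56 ± 0.10 at 1000 nM (2.15e-05) and 0.67 ± 0.09 at 10000 nM (5.53e-07) under TMM. With library sizes only the 3 values were 0.08, 0.11 and 0.14, none of them called, and with mitochondrial scaling -1.28, -1.93 and -2.13. The call at 100 nM was lost without replicate 1 (0.36, adjusted p = 0.081).

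Among the structural subunits of the core, GTF2H2 and GTF2H4 fell and GTF2H3 rose. GTF2H4, which anchors XPB in the core, was at 31.5 to 45.7 normalised CPM in DMSO (median 40.9), and at 23.4, 22.7 and 24.3 at 1000 nM and 24.2, 25.5 and 25.8 at 10000 nM, all below DMSO, as 23.1% and 24.6% of all genes were. Its changes were -0.61 ± 0.13, -0.77 ± 0.11 and -0.71 ± 0.10 at the 3 doses (adjusted p = 0.000327, 6e-07 and 7.48e-07). GTF2H4 was called lower in all alternatives that tested it.

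GTF2H2, which stimulates the XPD helicase, was at 8.18 to 22.2 normalised CPM in DMSO (median 13.1) and at 4.90, 6.68 and 5.50 at 10000 nM, below every DMSO well. At 100 nM it was at 6.46 and 5.51 in replicates 1 and 3, and at 0 counts in the shallowest library. It fell by 1.14 ± 0.27 at 100 nM and by 1.25 ± 0.22 at 10000 nM (adjusted p = 0.000815 and 1.66e-05), and the value at 100 nM was -1.11 without the shallowest library (adjusted p = 0.0014). At 1000 nM it fell by 0.70 ± 0.27 (adjusted p = 0.0282), a call lost without replicate 1, the shallow library (-0.33, adjusted p = 0.28) and without replicate 3 (-0.75, adjusted p = 0.062). GTF2H2 has near-identical copies in its region, and RSEM shares reads between them. The copy GTF2H2C was at -1.002 ± 0.34, -0.67 ± 0.29 and -0.96 ± 0.28 at the same doses (adjusted p = 0.0137, 0.0434 and 0.00337), so the value of GTF2H2 cannot be told apart from that of its copies.

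GTF2H3, a structural partner of GTF2H2, was at 19 to 38.5 normalised CPM in DMSO and at 47.1, 53.2 and 47.8 at triptolide 10000 nM, above every DMSO well. Under TMM it rose by 0.87 ± 0.16 at 1000 nM and 0.84 ± 0.13 at 10000 nM (adjusted p = 3.04e-05 and 4.7e-06), but with mitochondrial scaling it was at -1.59 and -1.90. GTF2H1, a scaffold subunit that also binds activators, fell by 0.76 ± 0.25 at 100 nM (adjusted p = 0.0128), a call lost without replicate 1 or replicate 3 (adjusted p = 0.061 and 0.1). It was not called at 1000 nM (-0.25 ± 0.23) or 10000 nM (-0.43 ± 0.21) in the main fit. The outcome depended on the fit, since GTF2H1 was called in 3 of 12 alternatives at 1000 nM (-2.706 to 0.054). At 10000 nM it was called in 5 of 12 (-3.144 to -0.125). GTF2H5, which stabilises the complex, ran from 6.02 to 25.7 normalised CPM in DMSO, a wide spread. It was not called at any dose in the main fit (-0.82 ± 0.51, 0.13 ± 0.45 and 0.25 ± 0.39). The outcome for GTF2H5 also depended on the fit, with calls in 1, 2 and 3 of 11 alternatives at the 3 doses. At 10000 nM its alternatives ran from -2.420 to 0.997.

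The kinase module showed the largest change. CDK7, the kinase that phosphorylates the polymerase tail and activates cell cycle kinases, was at 25.8 to 42.1 normalised CPM in DMSO with a median of 32.3. With triptolide it was at 10.4, 24.1 and 12.6 at 100 nM, at 1.54, 2.56 and 2.21 at 1000 nM, and at 1.78, 1.63 and 1.86 at 10000 nM. No triptolide well reached the DMSO range, which held for 18.6% of all genes at 100 nM, and the value of 24.1 comes from the library with 2 counts of CDK7. CDK7 still held 12, 22 and 91 counts in the wells at 1000 nM and 45, 45 and 47 at 10000 nM.

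The log2(Fold Change) of CDK7 was -1.45 ± 0.19 at 100 nM, -3.92 ± 0.20 at 1000 nM and -4.23 ± 0.19 at 10000 nM (adjusted p = 5.99e-07, 1.72e-14 and 5.03e-16), that is 2.73, 15.2 and 18.8-fold lower. Only 4.79% of the genes tested fell further at 1000 nM and 3.85% at 10000 nM. It was called under every alternative that tested it, with changes from -3.63 to -6.38 at 1000 nM and from -4.00 to -6.98 at 10000 nM. CDK7 was the only one of the 10 genes with a dose trend over the triptolide wells (-1.43 ± 0.23 per 10-fold dose, adjusted p = 0.000663, against 24.8% of all genes called).

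In the main fit the binding partners of CDK7 did not follow it. CCNH was at 8.76 to 24.8 normalised CPM in DMSO and at 19.2, 18.5 and 16.03 at triptolide 10000 nM, within the DMSO range, with changes of -0.05 ± 0.23, 0.41 ± 0.19 and 0.05 ± 0.18 at the 3 doses. Without replicate 1 at 1000 nM, the shallow library, CCNH was called higher there (0.60, adjusted p = 0.018). MNAT1 was at 21.6 to 42.3 in DMSO and at 35.5, 35.8 and 29.4 at 10000 nM, with changes of -0.40 ± 0.21, 0.21 ± 0.19 and 0.08 ± 0.17. Both were called lower with mitochondrial scaling (-2.69 for CCNH and -2.65 for MNAT1 at 10000 nM), and they were at -0.48 and -0.45 with library sizes only. Both were also called at 10000 nM with the GC slope of the library, described below, as a covariate. Over the alternatives at that dose CCNH was called in 3 of 11 (-2.691 to 0.259) and MNAT1 in 4 of 12 (-2.652 to 0.368). A lack of change is therefore a statement about the main fit on the TMM scale.

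**Figure D2:**
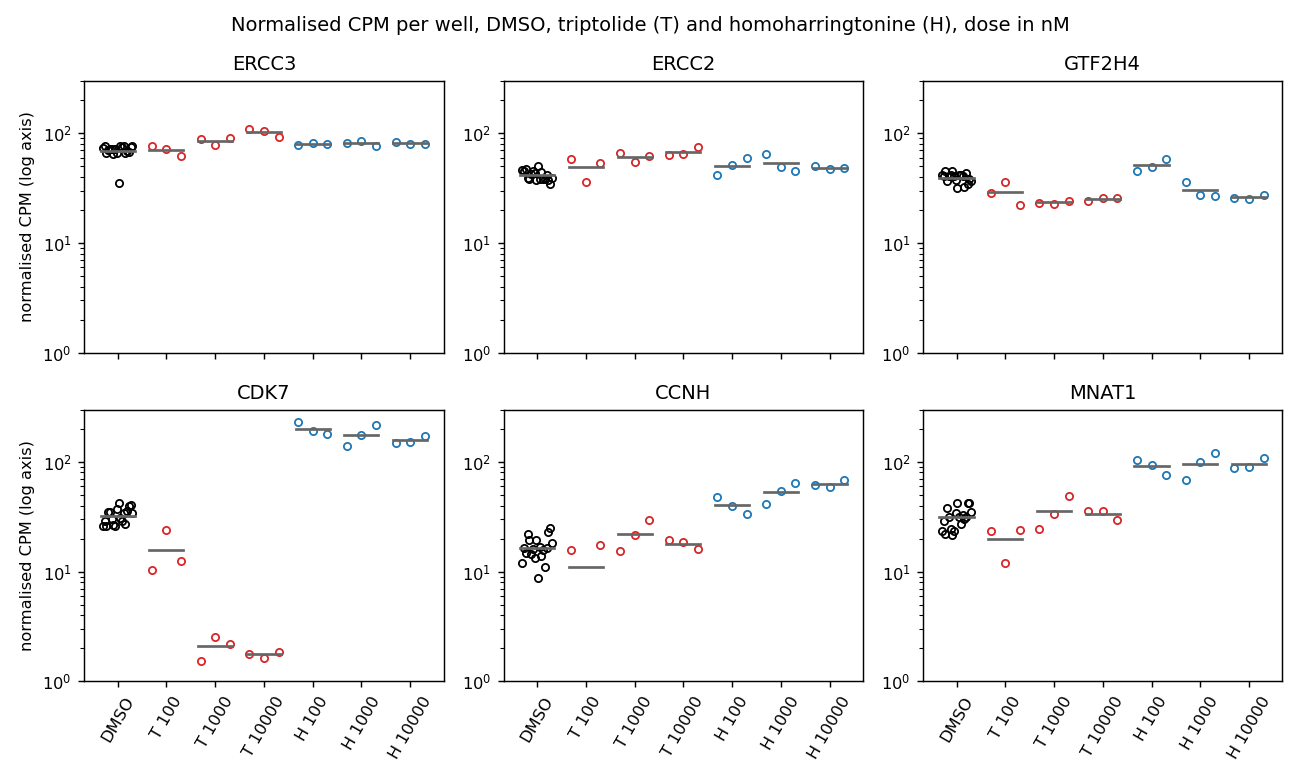
Normalised CPM per well on a log axis for 6 of the 10 genes, in DMSO, triptolide (T) and homoharringtonine (H) at 100, 1000 and 10000 nM, with bars at the means. CDK7 lies between 1.54 and 2.56 at triptolide 1000 nM and between 139 and 229 in all homoharringtonine wells, whereas ERCC3 stays between 61.8 and 110 in all treated wells drawn. The well of triptolide 100 nM with 0 counts of CCNH cannot be drawn on a log axis but is in the mean.

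Homoharringtonine blocks elongation by the ribosome and served as a second inhibitor with another target. All 3 genes of the kinase module rose, together with GTF2H2 and GTF2H3, while GTF2H4 was higher at 100 nM and lower at the upper doses. At 100 nM 7 of 10 genes were called (63.4% of all genes tested), all 7 higher (31.1% of all genes). At 1000 nM 8 were called (68.4%), 7 higher (35%) and 1 lower (33.4%), and at 10000 nM 7 (74%), 6 higher (36.7%) and 1 lower (37.2%). The total was near that of all genes, and the count of higher genes was above their share in all genes. The median log2(Fold Change) of the 10 genes was 0.53, 0.69 and 0.94, beside -0.03, -0.01 and -0.05 over all genes tested. Past a log2(Fold Change) of 1, 4, 4 and 5 genes were higher (15.6%, 21.5% and 23.6% of all genes).

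CDK7 was at 229, 191 and 178 normalised CPM at 100 nM, at 139, 177 and 215 at 1000 nM, and at 150, 152 and 172 at 10000 nM, far above the highest DMSO well (42.1). It rose by 2.65 ± 0.10, 2.46 ± 0.11 and 2.27 ± 0.11 (adjusted p = 1.62e-16, 2.88e-15 and 6.17e-15), or 6.27, 5.50 and 4.82-fold. Of all genes tested 2.67%, 5.59% and 8.50% rose more. Its rise was called under every alternative, the smallest value being 1.80 at 10000 nM with the GC slope as a covariate.

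CCNH was at 47.7, 39.3 and 33.3 normalised CPM at 100 nM, at 41.5, 53.8 and 64.4 at 1000 nM, and at 62.0, 58.8 and 68.4 at 10000 nM, above every DMSO well. It rose by 1.27 ± 0.16, 1.66 ± 0.16 and 1.88 ± 0.15 (adjusted p = 3.01e-07, 2.85e-09 and 8.55e-11). MNAT1 was at 68.0 to 121 over the 9 wells against at most 42.3 in DMSO and rose by 1.57 ± 0.15, 1.63 ± 0.16 and 1.60 ± 0.15 (adjusted p = 1.47e-09, 2.29e-09 and 1.31e-09). Wells of all 3 kinase module genes lay above DMSO at each dose, as 20.1%, 21.8% and 28.7% of all genes did.

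GTF2H2 rose by 1.23 ± 0.19, 1.14 ± 0.19 and 1.28 ± 0.18 (adjusted p = 4.46e-06, 1.1e-05 and 7.19e-07), and its copy GTF2H2C was at 1.06, 1.09 and 1.18 (adjusted p = 0.000454, 0.000597 and 8.16e-05). GTF2H3 rose by 0.68 ± 0.14, 0.63 ± 0.15 and 0.74 ± 0.14 (adjusted p = 0.000188, 0.000507 and 3.88e-05). GTF2H1 was not called at 100 nM (0.37 ± 0.19, adjusted p = 0.0961) and rose by 0.74 ± 0.21 at 1000 nM, a call lost without replicate 3 (0.50, adjusted p = 0.076), and by 1.14 ± 0.18 at 10000 nM (5.88e-06). GTF2H4 rose by 0.38 ± 0.10 at 100 nM (adjusted p = 0.00168) and fell by 0.40 ± 0.11 at 1000 nM and by 0.64 ± 0.09 at 10000 nM (0.0024 and 1.18e-06), with all wells at 10000 nM below DMSO (18.9% of all genes). The rise of GTF2H4 at 100 nM was lost without replicate 3 (0.26, adjusted p = 0.051) and with library sizes only (0.15). GTF2H5 was not called at any dose (-0.70 ± 0.43, -0.52 ± 0.44 and -0.15 ± 0.39), but with the GC slope of the library as a covariate it was at -1.56, -1.59 and -1.80 and called at each (adjusted p = 5.2e-09, 5.9e-09 and 1.7e-08).

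The helicases changed little. ERCC3 was at 79.0, 81.9 and 80.1 normalised CPM at 100 nM, at 81.6, 84.9 and 77.5 at 1000 nM, and at 84.0, 80.0 and 79.7 at 10000 nM, just above the highest DMSO well (76.7). Its changes of 0.21 ± 0.10, 0.21 ± 0.11 and 0.18 ± 0.10 did not pass the threshold (adjusted p = 0.082, 0.0842 and 0.113). Without the 3 libraries under 10 mil, of which these fits held only DMSO replicate 10, they were 0.16, 0.18 and 0.16 and passed (adjusted p = 0.043, 0.015 and 0.035). With DESeq2 they also passed, at 0.16, 0.21 and 0.20. With library sizes only they were -0.02, 0.07 and 0.14, none of them called. ERCC2 rose by 0.31 ± 0.11 at 100 nM and 0.37 ± 0.11 at 1000 nM (adjusted p = 0.0166 and 0.00584) and was not called at 10000 nM (0.19 ± 0.09, adjusted p = 0.066). The ERCC2 calls were lost without replicate 2 or 3 at 100 nM (adjusted p = 0.059 and 0.24), without replicate 1 at 1000 nM (0.16), and with library sizes only.

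The libraries of homoharringtonine at 10000 nM differed in base composition. The GC slope of a library, the slope of log2(TPM + 1) against DMSO on transcript GC in steps of 10 percentage points, was -0.55 to -0.45 in them and -0.35 to 0.24 in DMSO. It was -0.41 to -0.04 at 100 nM and -0.55 to 0.05 at 1000 nM. Of the genes that rose there, GTF2H1, GTF2H2, GTF2H3, CDK7, CCNH and MNAT1 have a transcript GC of 38.8 to 42.5%, below that of ERCC3 (50.0%), GTF2H4 (56.5%) and ERCC2 (59.9%). GTF2H5 has a GC of 41.1%, within the range of the genes that rose, and did not rise (-0.15 ± 0.39 at 10000 nM). With the GC slope as a covariate, added after the data were seen, the 10000 nM changes were 0.26 for GTF2H1, 0.60 for GTF2H2, 0.17 for GTF2H3 (adjusted p = 0.1), 1.80 for CDK7, 1.22 for CCNH and 0.92 for MNAT1. Of the rises at that dose, the call of GTF2H3 was the one lost. The compound and the GC slope cannot be told apart beyond this fit. At triptolide 10000 nM CDK7 was at -4.10 in the same fit.

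**Figure D3:**
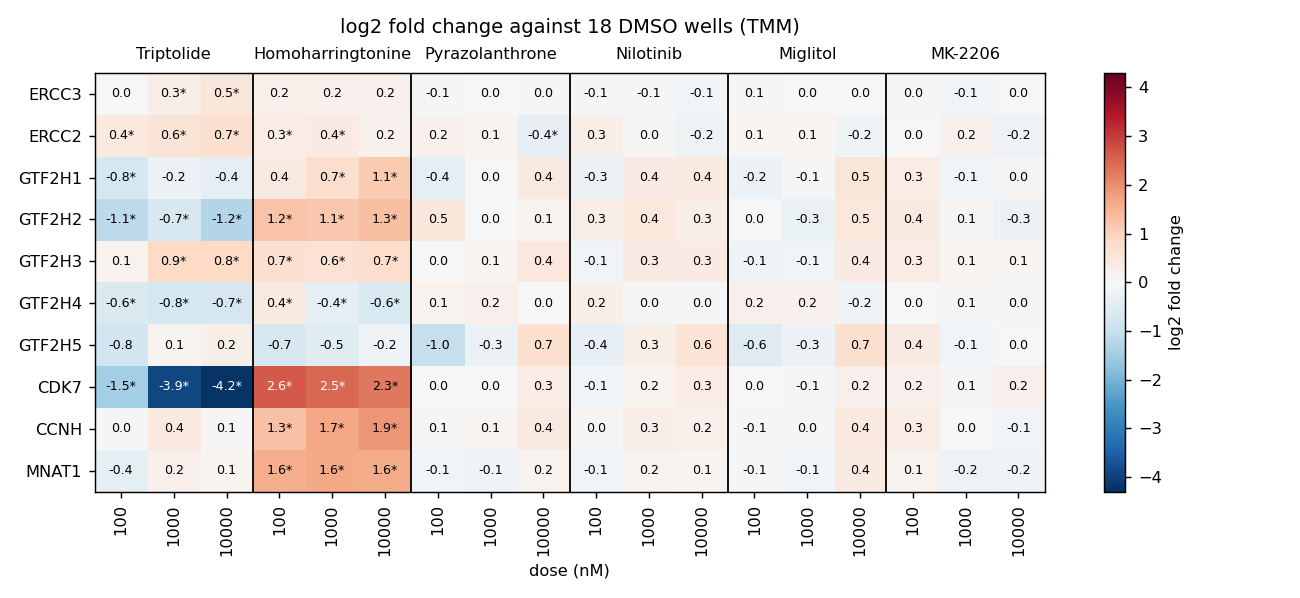
The log2(Fold Change) of the 10 TFIIH genes (rows) at each compound and dose (columns) against the 18 DMSO wells on the TMM scale, with stars for an adjusted p-value under 0.05. At 10000 nM CDK7 is at -4.23 in the triptolide column and at 2.27 in the homoharringtonine column, and 1 star stands in the 12 columns of the other compounds. The positive triptolide values of ERCC3, ERCC2 and GTF2H3 turn negative with mitochondrial scaling.

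The direct contrast of both inhibitors at the same dose does not share the DMSO wells. CDK7 was at -4.04 ± 0.23 at 100 nM, -6.39 ± 0.30 at 1000 nM and -6.42 ± 0.11 at 10000 nM, triptolide against homoharringtonine, (adjusted p = 2.87e-10, 2.06e-06 and 8.82e-12), or 16.5, 83.9 and 85.4-fold lower. The other genes called lower with triptolide at all 3 doses were GTF2H1, GTF2H2, CCNH and MNAT1, and GTF2H4 was called lower at 100 nM. At 100 nM 6 of 10 genes were called (65.5% of all genes), all lower (35.8%) and 0 higher (29.7%). At 1000 nM 5 were called (66.8%), all lower (38.9%) and 0 higher (27.9%), and at 10000 nM 7 (88.4%), 5 lower (47%) and 2 higher (41.4%).

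CCNH was at -1.24 ± 0.24, -1.27 ± 0.30 and -1.75 ± 0.10 in this contrast, and MNAT1 at -1.90 ± 0.21, -1.43 ± 0.32 and -1.43 ± 0.11. The call of GTF2H1 at 1000 nM (-1.003 ± 0.38, adjusted p = 0.0415) was lost without replicate 1 or 2 of triptolide and without replicate 2 or 3 of homoharringtonine (adjusted p from 0.11 to 0.14). Both helicases were higher with triptolide at 10000 nM under TMM, ERCC3 by 0.40 ± 0.08 (adjusted p = 0.000875) and ERCC2 by 0.57 ± 0.08 (6.55e-05), but not with library sizes only (-0.17 and -0.01) or mitochondrial scaling (-2.19 and -2.02). ERCC3 was not called at 100 nM or 1000 nM (-0.14 ± 0.18 and 0.06 ± 0.16).

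Over the homoharringtonine doses 3 genes had a trend (44% of all genes did). GTF2H4 changed by -0.52 ± 0.09 per 10-fold dose (adjusted p = 0.000915), GTF2H1 rose by 0.37 ± 0.12 (0.028) and CCNH by 0.29 ± 0.09 (0.0229). The trend of GTF2H4 was called without any single well, whereas that of GTF2H1 was lost without any of the 3 wells at 10000 nM (0.34 to 0.39) or replicate 2 or 3 at 100 nM (0.38 and 0.32), and that of CCNH without replicate 1 or 3 at 10000 nM (0.31 and 0.28) or replicate 2 or 3 at 100 nM (0.28 and 0.23). ERCC3 had none (-0.02 ± 0.05, adjusted p = 0.73).

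With the other 4 compounds 1 member was called in 12 groups. In their 12 groups ERCC3 was between -0.13 and 0.06 against DMSO, and its mean was 63.7 to 73.0 normalised CPM. CDK7 was between -0.10 and 0.33. The 1 call was ERCC2 with pyrazolanthrone at 10000 nM, at -0.36 ± 0.10 (adjusted p = 0.0234, where 7.65% of all genes were called), and it was lost when any of its 3 wells was left out (adjusted p from 0.11 to 0.16). In the other 11 groups edgeR called 0 of the 10 genes, and the lowest adjusted p was 0.121, with nilotinib at 10000 nM. Over 100, 1000 and 10000 nM, the share of all genes called was 4.76% and 0% for pyrazolanthrone at the lower doses, 9.08%, 3.95% and 14.4% for nilotinib, 0%, 0% and 0% for miglitol and 0.0648%, 1.52% and 3.15% for MK-2206. DESeq2 likewise called 0 in these 11 groups. These counts depend on the fit at 10000 nM, since with the replicate number as a block and DMSO replicates 1 to 3 alone, 9 of the 10 genes were called with miglitol (46.3% of all genes), 7 with pyrazolanthrone (34.7%) and 5 with nilotinib (31.7%). The largest fold changes there were those of GTF2H5, from -0.98 to 0.70.

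ERCC3 was then compared with its partners within each well, as the log2 ratio of counts with 0.5 counts added, which does not depend on how libraries are scaled. The ratio to ERCC2, the other helicase, and to CDK7, the kinase, were tested by an exact two-sided permutation test of 3 wells against 18, adjusted over 36 tests, for which the smallest p is 0.0015. The ratio of ERCC3 to CDK7 was 1.10 ± 0.41 (SD, n = 18) in DMSO. It was 5.35 ± 0.43 and 5.85 ± 0.21 (SD, n = 3) at triptolide 1000 nM and 10000 nM, higher by 4.25 and 4.75 with 3 of 3 wells above every DMSO well (exact p = 0.0015, adjusted p = 0.011 at both doses). At triptolide 100 nM it was 2.18 ± 0.75, with 2 of 3 wells above DMSO (exact p = 0.0075, adjusted p = 0.045), and this call was lost when the ratio was taken from TPM (0.48) or with 5 counts added (0.82).

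With homoharringtonine the ratio of ERCC3 to CDK7 was -1.30 ± 0.21, -1.10 ± 0.35 and -0.96 ± 0.14, with 3 of 3 wells below every DMSO well at each dose (exact p = 0.0015, adjusted p = 0.011). CDK7 counts thus exceeded those of ERCC3 in these wells. When a single well was left out of a group, no ratio with the 2 wells left passed after adjustment (adjusted p at least 0.054). Leaving out single wells therefore gives values only. The ratio of ERCC3 to ERCC2 was 0.73 ± 0.35 in DMSO and between 0.49 and 0.75 with both inhibitors (adjusted p from 0.62 to 0.90). Its change was -0.23, -0.24 and -0.14 over the triptolide doses and -0.055, -0.109 and 0.023 over the homoharringtonine doses. The DMSO wells ran from -0.525 to 1.11, and from 0.51 to 1.11 without the shallow replicate 10. Both inhibitors overlapped with either range, at 0.41 to 0.55 for triptolide 1000 nM. With all libraries kept, no shift of ERCC3 against ERCC2 was called with either inhibitor. A shift was called at triptolide 100 nM without libraries under 10 mil, where 2 treated wells were left (-0.51, adjusted p = 0.047). The other call was pyrazolanthrone 10000 nM, where the ratio was 1.09 ± 0.11 (exact p = 0.009, adjusted p = 0.046) and 1 of 3 wells lay above DMSO. The latter call was lost with TPM (0.49) and with 5 counts added (0.36), both at an exact permutation adjusted p of 0.054.

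Against the other partners the ratios are a description. How many of all genes left the DMSO range in their ratio to ERCC3 was not counted, so the lists below do not set the partners apart. In normalised CPM 24.7% of all genes lay above and 24.6% below every DMSO well at triptolide 10000 nM. At homoharringtonine 10000 nM these shares were 28.7% and 18.9%. At triptolide 10000 nM all wells lay above the DMSO range for the ratios of ERCC3 to GTF2H1, GTF2H2, GTF2H4 and CDK7, and overlapped with it for ERCC2, GTF2H3, GTF2H5, CCNH and MNAT1. At homoharringtonine 10000 nM the ratio was above DMSO for GTF2H4, below it for GTF2H1, CDK7 and CCNH, and overlapping for the other 5. For GTF2H2 and MNAT1 the overlap came from the shallow DMSO replicate 10. Against the other 17 DMSO wells both lay below, at most 1.497 against at least 1.599 for GTF2H2 and at most -0.07 against at least 0.67 for MNAT1. ERCC3 minus the mean of its 9 partners was 1.46 ± 0.34 (SD, n = 18) in DMSO. It changed by 0.59, 0.76 and 1.02 over the triptolide doses and by -0.64, -0.61 and -0.75 over the homoharringtonine doses, and by -0.35 to 0.16 in the 12 groups of the other compounds. Without CDK7, a choice made after seeing the data, the changes against the 8 other partners were 0.53, 0.32 and 0.55 for triptolide and -0.41, -0.41 and -0.59 for homoharringtonine.

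**Figure D4:**
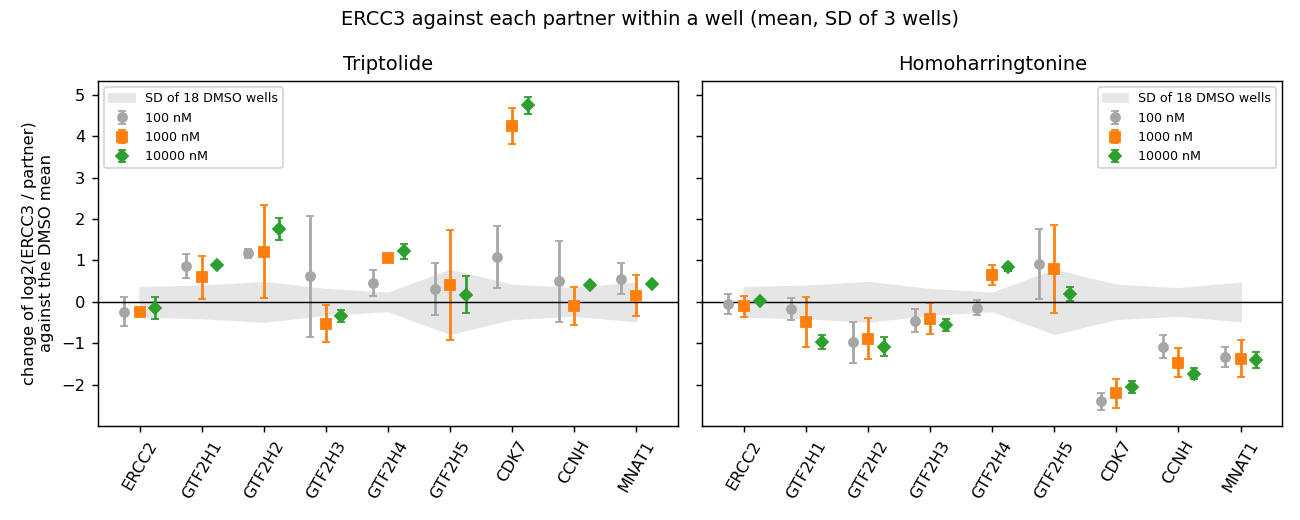
Change of the log2 ratio of ERCC3 to each of its 9 partners against the DMSO mean, for triptolide and homoharringtonine at 3 doses, as mean and SD of 3 wells, with the SD of the 18 DMSO wells in grey. At 10000 nM the ratio to CDK7 is at 4.75 for triptolide and -2.06 for homoharringtonine. Over all 3 doses of both compounds the ratio to ERCC2 stays between -0.24 and 0.02.

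**Figure D5:**
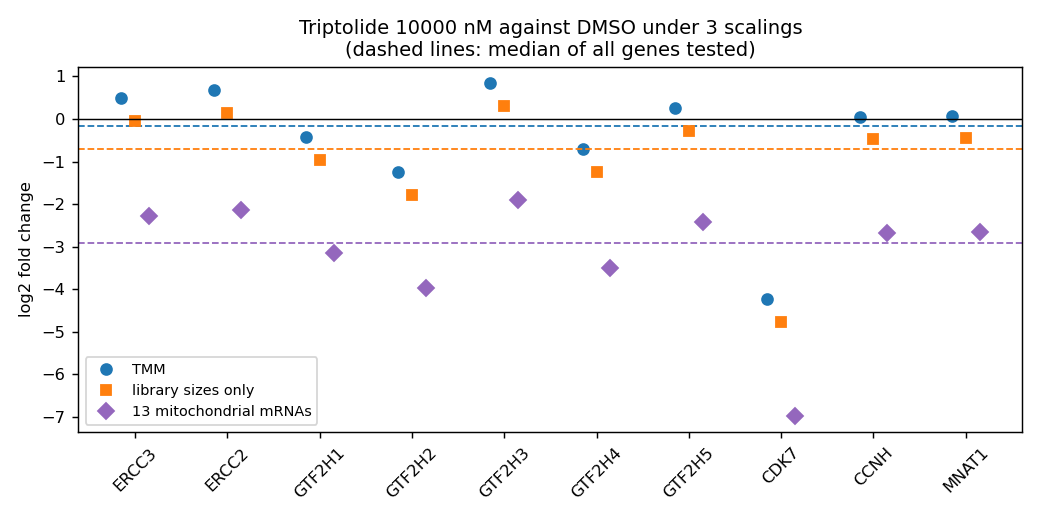
The log2(Fold Change) of the 10 genes at triptolide 10000 nM under TMM, library sizes only and scaling to mitochondrially encoded mRNAs, with dashed lines at the median of all genes tested. The values move together with the scaling, ERCC3 from 0.50 to -0.04 and -2.28, and CDK7 is the lowest gene under all 3.

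Across all 19 group means ERCC3 was among the steadiest genes. The SD of its mean log2(CPM + 1) over groups was 0.17, and 0.700% of 9240 protein-coding genes with a DMSO mean of at least 10 CPM had a smaller one, where the median gene had 0.56. For CDK7 the SD was 1.56, and 1.29% of genes had a larger one. ERCC2 had 0.26, GTF2H4 0.32, GTF2H1 0.49, GTF2H5 0.49, GTF2H3 0.52, MNAT1 0.64, CCNH 0.70 and GTF2H2 0.76. These values rest on TMM, which places most genes near no change.

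The 5 genes whose group means followed ERCC3 most closely were PEX19 (Pearson r = 0.957), CKS1B (0.953), ZC4H2 (0.948), NDUFA10 (0.942) and SNX1 (0.937), over 19 groups that share the DMSO wells, libraries and normalization. Of the partners, ERCC2 had r = 0.719, GTF2H3 0.553, MNAT1 0.474, CCNH 0.393, CDK7 -0.308 and GTF2H4 -0.644. ERCC3 itself varied little over these groups, so r describes the order of small differences.

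The subunits of TFIIH were set beside 22 other general transcription factors of RNA polymerase II. At triptolide 1000 nM 13 of the 22 fell and 5 rose, with a median of -0.99 against -0.21 over all genes. TAF7 went from 119 ± 18.7 to 6.24 ± 2.89 normalised CPM (mean ± SD, n = 18 and 3), a change of -4.23 ± 0.24, and GTF2E1, a subunit of TFIIE, which recruits TFIIH, changed by -4.14 ± 0.23 from 25.9 ± 2.46 to 1.21 ± 0.93. Both changes were of the size of that of CDK7. TAF6 and TAF10, subunits of TFIID, rose by 1.19 ± 0.11 and 0.91 ± 0.11. At 100 nM 6 rose and 6 fell, and at 10000 nM 4 rose and 12 fell. Of all genes 24.5%, 28.8% and 32.2% rose and 32.3%, 38.6% and 39.7% fell over these doses. With homoharringtonine 15, 13 and 13 of the 22 rose and 1, 2 and 3 fell at the 3 doses, where 31.1%, 35% and 36.7% of all genes rose and 32.3%, 33.4% and 37.2% fell.

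Of 20 other genes of nucleotide excision repair, the second task of TFIIH, 8, 11 and 10 rose and 7, 7 and 8 fell over the triptolide doses, beside the shares of all genes just given. ERCC4, a subunit of the nuclease that cuts beside the lesion, changed by -3.21 ± 0.32 and ERCC6, which acts in transcription-coupled repair, by -2.83 ± 0.19 at 1000 nM. LIG1, a DNA ligase, changed by 1.39 ± 0.12. With homoharringtonine 11, 9 and 10 of the 20 rose and 3, 4 and 7 fell. ERCC4 and ERCC6 were higher there at 1000 nM (0.78 ± 0.19 and 1.25 ± 0.12), as was CDK7, and LIG1 was not called (-0.17 ± 0.15). All counts of both lists rest on the TMM scale.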

How the data were processed

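Population RNA-seq was measured in 72 wells of U2OS cells. The labels give TruSeq stranded mRNA libraries with poly(A) selection, build GRCh38 and the tools RSEM, HTSeq and DESeq2 without versions, and the annotation release is not given in the sources used here. The authors deposited RSEM expected counts, estimates of reads per gene that are not normalized, for 60371 Ensembl genes. The deposited TPM values are corrected for gene length and sum to the same total in every library. The deposited lengths and effective lengths, other values of the same files, were used to infer fragment length.

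Groups, doses and replicate numbers came from the labels. GENCODE release 44 held 56104 of the identifiers and gave symbols and positions. Rounded expected counts were fitted in R 4.3.3 with edgeR 4.0.16 (TMM, filterByExpr with a smallest count of 10, glmQLFit, glmQLFTest, Benjamini-Hochberg over all genes). SE is the size of the log2 fold change divided by the square root of the quasi-likelihood F. DESeq2 1.42.0 was an alternative. Exact permutation tests used Python 3.11.15 and scipy 1.17.1. Scripts were tested on simulated data. TPM served to compare levels between genes, to give medians beside the TMM values, as an alternative for the ratios and for the GC slope of each library. The rule for named genes took the 10 members, the 5 genes most correlated with ERCC3, the 2 largest rises and falls of each pathway list at triptolide 1000 nM, and the copies of GTF2H2. A gene that this rule names is not reported here. The copy GTF2H2B had few counts and is not described, and the copy GTF2H2C_2 was not matched by name. The members, the lists and the tests were chosen with earlier results of these data known. The labels do not say whether replicate numbers pair wells. Alternatives were other scalings, filters, DESeq2, a replicate block, leaving out single wells or libraries under 10 mil, other pseudocounts and, added after seeing the data, GC slope or fragment length as covariates and the partner mean without CDK7. Depth limits the precision of 3 libraries. The counts come without molecular identifiers, so counting error is only a lower bound on the error of a count.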

Additional observations from a re-analysis of the deposited data

How the results depend on the processing

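At triptolide, direction depended on the scaling. With library sizes only, values that turned sign included ERCC3 -0.037, GTF2H5 -0.28, CCNH -0.48 and MNAT1 -0.45 at 10000 nM and ERCC3 -0.17, GTF2H5 -0.34, CCNH -0.05 and MNAT1 -0.25 at 1000 nM against DMSO, and ERCC3 -0.17, ERCC2 -0.014, GTF2H3 -0.40 and GTF2H4 -0.56 at 10000 nM against homoharringtonine. With mitochondrial scaling they were, at 10000 nM against DMSO, ERCC3 -2.28, ERCC2 -2.13, GTF2H3 -1.90, GTF2H5 -2.42, CCNH -2.69 and MNAT1 -2.65; at 1000 nM ERCC3 -2.17, ERCC2 -1.93, GTF2H3 -1.59, GTF2H5 -2.32, CCNH -2.04 and MNAT1 -2.23; and at 100 nM ERCC2 -1.28 and GTF2H3 -1.53. Against homoharringtonine they were ERCC2 -1.47 at 100 nM, ERCC3 -2.31, ERCC2 -2.26, GTF2H3 -2.13 and GTF2H5 -1.67 at 1000 nM, and ERCC3 -2.19, ERCC2 -2.02, GTF2H3 -2.40, GTF2H4 -2.56 and GTF2H5 -2.11 at 10000 nM, and for the triptolide trend ERCC3 -0.31, ERCC2 -0.41 and GTF2H1 -0.38. The number of the 10 genes called was then 10 at each triptolide dose (81.1%, 95.5% and 98.4% of all genes called), 10 against homoharringtonine at 100 nM and 1000 nM (81.1% and 81%), 6 for the triptolide trend (53.6%), 4 with nilotinib 10000 nM (53.4%), 1 with nilotinib 100 nM (7.21%), 1 with pyrazolanthrone 100 nM (0.185%) and 0 with pyrazolanthrone 10000 nM (1.27%).

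With the GC slope as a covariate the counts were 10 at triptolide 10000 nM (77.1% of all genes), 2 with pyrazolanthrone 10000 nM (10.7%), 2 with MK-2206 10000 nM (10.9%), and 1 each with pyrazolanthrone 100 nM (10.8%), nilotinib 100 nM (18.2%) and nilotinib 1000 nM (12.9%). With fragment length as a covariate and with DESeq2 the count with pyrazolanthrone 10000 nM was 2 (11.9% and 11.6%). At least 10 counts in every well left 4 calls with homoharringtonine 100 nM (69.3% of all genes), and for triptolide 100 nM, its contrast with homoharringtonine and the triptolide trend none of the 10 genes could be tested.

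The labels give wells of different groups the same replicate numbers without saying that they belong together. The deviations of same-numbered wells correlated with those of DMSO replicates 1 to 3 from -0.76 to 0.75 over the 18 groups. All 3 pairs were above 0.1 in none of them. With MK-2206 at 1000 nM the mean was 0.460 for same numbers and -0.032 for different ones. Whether same-numbered wells belong together was therefore not settled. With the replicate block, which keeps DMSO replicates 1 to 3, the counts were 3 at triptolide 1000 nM (51.3% of all genes), 7 with pyrazolanthrone 10000 nM (34.7%), 5 with nilotinib 10000 nM (31.7%), 9 with miglitol 10000 nM (46.3%), 1 with MK-2206 10000 nM (2.19%) and 1 for the homoharringtonine trend (37.2%).

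The ERCC3 to CDK7 change at triptolide 100 nM was 0.48 from TPM and 0.82 with a pseudocount of 5, and the ERCC3 to ERCC2 change with pyrazolanthrone 10000 nM was 0.49 and 0.36; none of these passed. ERCC3 minus its partners at triptolide 100 nM was 1.38 from TPM, and at 10000 nM it was 0.55 without CDK7. Without libraries under 10 mil the ERCC3 to ERCC2 change at triptolide 100 nM was -0.51 and the ERCC3 to CDK7 change with nilotinib 10000 nM was -0.48, and both passed. In each case the cause was not tested.

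Leaving out single wells moved the number of genes called within 3 to 5 at triptolide 100 nM, 5 to 6 at 1000 nM, 5 to 7 with homoharringtonine 100 nM, 7 to 8 at 1000 nM, 0 to 4 with nilotinib 100 nM, 0 to 0 with pyrazolanthrone 10000 nM, 6 to 9, 4 to 6 and 7 to 9 in the contrasts of both inhibitors at the 3 doses, and 1 to 4 for the homoharringtonine trend. The ratio changes of ERCC3 to CDK7 lay within 0.74 to 1.48, 4.03 to 4.46 and 4.67 to 4.86 over the triptolide doses and within -2.48 to -2.28, -2.37 to -2.02 and -2.12 to -1.98 over the homoharringtonine doses, and that of ERCC3 to ERCC2 with pyrazolanthrone 10000 nM within 0.30 to 0.40. All other counts stayed within 1.5 times of the value reported.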
